A study of Mus musculus with 6 samples.

Results

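The Slit-Robo guidance family was examined in bEnd.3 cells, an immortalized mouse brain endothelial line with the genotype given as WT, that had been kept for 24 h with mitochondria. The organelles came from a mouse line with osteocyte features, MLO-Y4. The 9 family genes were taken by symbol from a table of 55401 genes, and all 9 were found: the ligand genes Slit1, Slit2 and Slit3, the receptor genes Robo1, Robo2, Robo3 and Robo4, and the adaptor genes Srgap1 and Srgap2. The mitochondria group has 3 libraries of cells given the organelles in 100 ul of culture medium, and the control group has 3 libraries of cells given an equal volume of medium without them. The cell line, genotype and growth medium were the same in both groups. Nothing in the labels says that the libraries came from separate cultures, so the spread between them may be technical. The family was chosen because of its values in this same contrast, led by the level of Slit2, so the differences of its members between the groups are described here, and the few counts of members called are printed beside those of all genes without being read as support.

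Slit proteins are large secreted ligands that bind Robo receptors together with heparan sulfate, and Robo receptors pass the signal to the actin skeleton through adaptors such as the srGAP proteins. The system is best known for repelling growing axons from the midline. In blood vessels Slit2 acts on endothelial Robo1 and Robo2 during sprouting, Robo4 is an endothelial receptor that guards vessel stability, and in mouse bone Slit3 made by bone cells supports vessel growth.

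Library totals were 65394770 to 73376834 estimated counts, and 12774 genes with a mean of at least 1 FPKM (fragments per length of transcript and size of library) over the 6 libraries were tested. Of 17 endothelial marker genes, 10 stayed below 1 FPKM in all 6 libraries, among them Pecam1 and Cldn5, the latter listed at 0, while Cd34 (176 ± 16.4 FPKM in control), Eng (70.0 ± 7.84) and Flt1 (26.0 ± 3.7; SD, n = 3) were abundant, so the defining markers do not all bear out the endothelial label. The 17 genes summed to 2064 to 2375 CPM in control and 2474 to 2550.2 CPM in mitochondria libraries, and of the 6 tested 5 had a log2 fold change above 0, with a median of 0.293. By edgeR 0 of the 6 were called at an adjusted p under 0.05 (0.164% of all tested genes), with 4 at an unadjusted p under 0.05 (13.0% of all tested genes), and DESeq2 called 2, Tie1 and Ly6a (2.82% of all tested genes). The part of this list in the members' values was not tested. A neuronal list of 8 genes summed to 11.5 to 15.2 CPM and 14.5 to 15.6 CPM, most of it Syn1. Of 10 osteocyte markers, 8 stayed below 1 FPKM in all libraries, with Dmp1, Mepe and Ibsp at 0 counts. The list summed to 41.3 to 43.9 CPM in control and 38.6 to 48.3 CPM in mitochondria libraries. Most of this was Runx2, at 36.9 to 41.5 CPM and 34.9 to 44.5 CPM. The summed level of 22 pancreatic acinar genes was 155 to 254 CPM (counts scaled to library size) in control and 55.9 to 61.5 CPM in mitochondria libraries. Nearly all of the sum in mitochondria libraries was Cela1, at 53.2 to 58.8 CPM there and 57.1 to 74.3 CPM in control. Most other acinar genes were at or near 0 in mitochondria libraries. For 16 hepatocyte genes it was 53.1 to 68.4 CPM in control libraries and 4.54, 49.9 and 42.2 CPM in mitochondria libraries 1, 2 and 3.

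Slit2 was the most abundant member in control cells and stood at 0.55 times that level in cells given mitochondria. It had 12.9, 16.0 and 12.2 FPKM in control libraries 1, 2 and 3 and 7.67, 7.97 and 7.16 FPKM in mitochondria libraries 1, 2 and 3. The groups did not overlap, the mitochondria libraries lay close together, and control library 2 was the highest of all. The means were 13.7 ± 2.04 and 7.6 ± 0.411 FPKM (SD, n = 3), and the fitted log2 fold change was -0.86 (SE 0.11). Between libraries with the same replicate number the ratio of mitochondria to control CPM was 0.59, 0.494 and 0.583. Since the groups did not overlap, any pairing of libraries gives a lower level, so these ratios add no support. In bulk RNA of this kind, fewer cells that express a gene and less RNA per cell cannot be told apart.

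**Figure D1:**
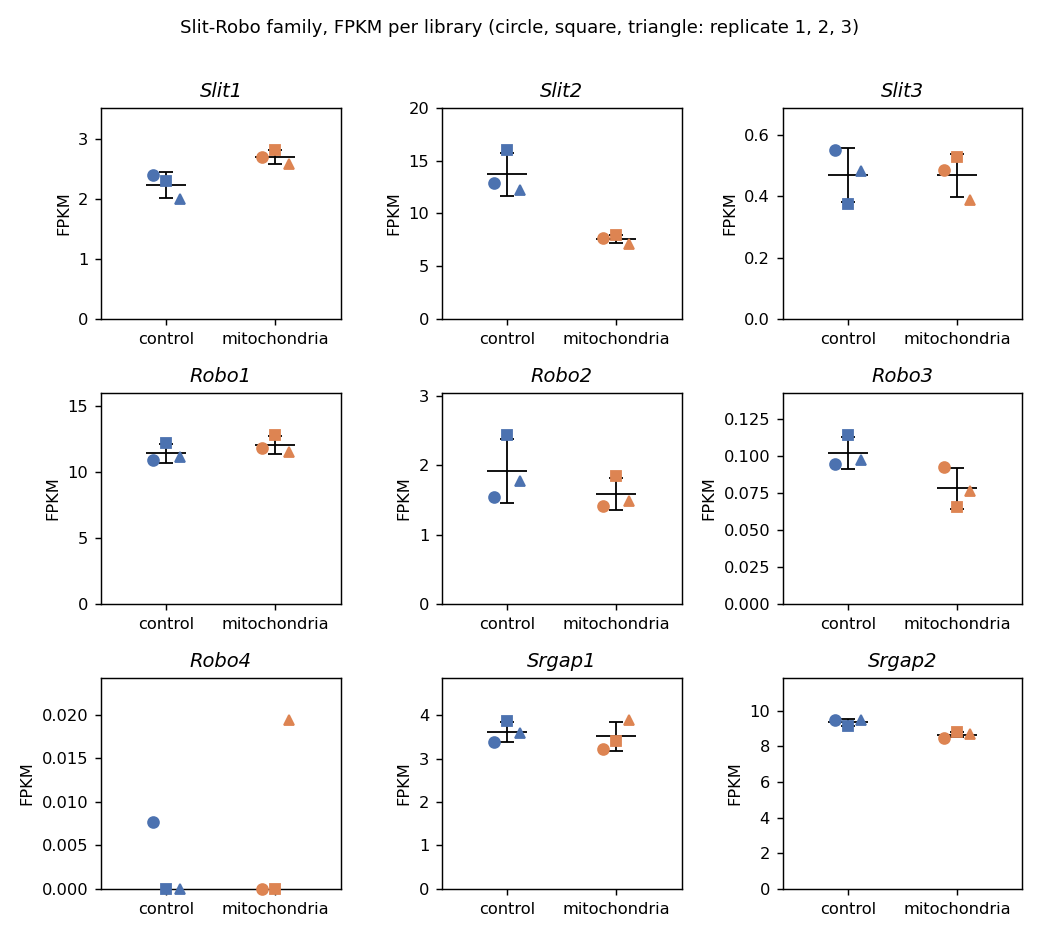
FPKM of the 9 family genes in each control and mitochondria library, on linear axes from 0 with a scale of its own in each panel. Symbols mark replicates 1, 2 and 3, the horizontal bar and whiskers give the mean and SD of 3 libraries (not drawn for Robo4, which is at 0 in 4 libraries), and Slit2 lies between 12.2 and 16.0 in control and between 7.16 and 7.97 in mitochondria libraries.

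Among all tested genes 103 of 12774 had a log2 fold change as low as that of Slit2 or lower, which is 0.806%, and among the 7686 genes with a mean of at least 5 FPKM there were 24, or 0.312%. Of the 6 members with a mean of at least 1 FPKM, edgeR's quasi-likelihood test called 0 at an adjusted p under 0.05, against 0.164% of all tested genes. DESeq2 called 1, Slit2, against 2.82% of all tested genes. Since the members were chosen from this contrast, nothing is read from these counts. The acinar marker list moved between the same groups, with 10 of its 15 tested genes called lower by edgeR and Ctrb1, Cela2a, Clps and Cpa1 at 0 counts in all mitochondria libraries, and its part in the Slit2 difference was not tested.

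**Figure D2:**
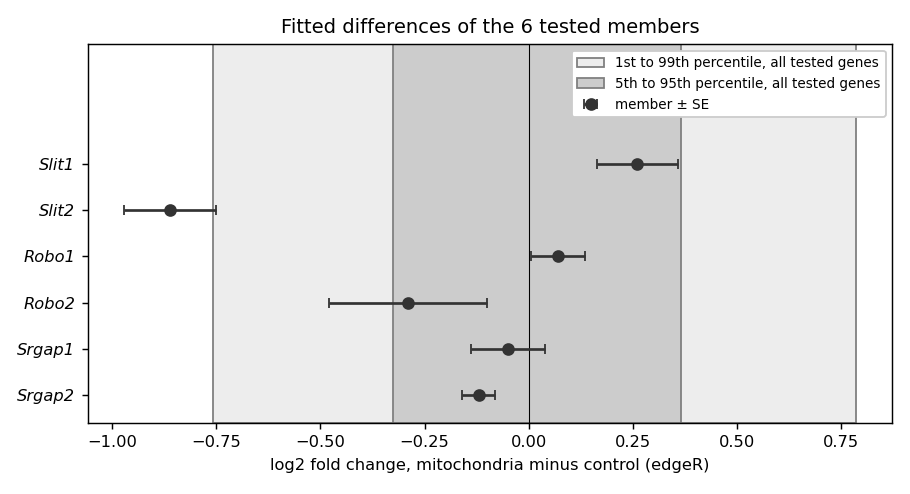
Fitted log2 fold change, mitochondria minus control, of the 6 tested members with the SE from edgeR. Shaded bands span the central percentiles of all 12774 tested genes (-0.758 to 0.785 from the 1st to the 99th), and Slit2 at -0.86 is the member outside the wider band.

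Slit2 (ENSMUSG00000031558) lies on the plus strand of chromosome 5, from 47983138 to 48307733 in GRCm38. The table lists 7 further genes within these bounds, none of them above 38 counts in any library, against 13354 to 33620 counts for Slit2. The bases just upstream of the gene are shown because they adjoin the annotated start of the member with the largest difference. They run from 47982905 to the last base before the annotated start (chr5:47982905-47983137, plus strand, RefSeq sequence on GRCm38.p6), and capitals mark matches to the GC box GGGCGG and the TATA box TATAAA.
Slit2 upstream: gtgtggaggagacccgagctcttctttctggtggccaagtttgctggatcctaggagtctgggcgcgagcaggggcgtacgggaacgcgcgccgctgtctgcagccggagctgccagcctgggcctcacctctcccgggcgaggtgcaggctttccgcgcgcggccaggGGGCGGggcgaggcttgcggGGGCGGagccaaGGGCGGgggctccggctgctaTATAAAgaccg
The TATAAA match begins 28 bases before the RefSeq start site, which lies inside the gene bounds, and 11 bases before the annotated gene start. In windows from 250 bases before to 50 bases after each RefSeq start, searched on both strands, TATAAA occurred in 13.6% and GGGCGG in 35.7% of 32851 promoters. Of the 8 members with a promoter in that set, Slit2 had 1 TATAAA match and the other members, Robo1, Robo2, Robo3, Robo4, Slit3, Srgap1 and Srgap2, had 0; the RefSeq start of Robo1 lies inside the gene bounds of the table. GGGCGG had 3 matches at Slit2, 6 at Slit3, 3 each at Robo3 and Srgap1, 2 at Srgap2 and 0 at Robo1, Robo2 and Robo4. The third letter pattern searched, ACGTG, which is the core bound by hypoxia-inducible factors and also part of a CACGTG E-box, occurred in 19.6% of promoters and, among the members, in 1 of the 3 windows of Robo2. All 3 windows of Robo2 lie outside its bounds in the table, and the window with ACGTG is the farthest, starting at 75447244 on chromosome 16. The bounds of Robo2 in the table differ from those in GENCODE M21, whereas those of the other members are the same. The windows of Slit2, Slit3 and Srgap1 were rich in CpG, with observed over expected ratios of 0.9, 0.928 and 0.949, whereas that of Robo4 had 0.106 and the median of all promoters was 0.384. These are matches of letters only.

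Slit1, a ligand mostly studied in the nervous system, was the other Slit gene expressed above 1 FPKM. Its levels were 2.41, 2.3 and 2.0 FPKM in the control and 2.7, 2.82 and 2.58 FPKM in the mitochondria libraries. Every mitochondria library was above every control library, opposite to Slit2. The means were 2.23 ± 0.214 and 2.7 ± 0.12 FPKM (SD, n = 3), with a log2 fold change of 0.26 (SE 0.097), a 1.2-fold higher level. Slit1 (ENSMUSG00000025020) is on the minus strand of chromosome 19, from 41600257 to 41743665. Slit3 was below 1 FPKM and was not tested, with 0.55, 0.376 and 0.481 FPKM in control and 0.485, 0.528 and 0.389 FPKM in mitochondria libraries. Its groups overlapped, and it had 174 to 271 counts per library. Slit3 (ENSMUSG00000056427) is on the plus strand of chromosome 11, from 35121224 to 35708507.

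Together the 3 ligand genes summed to 16.4 ± 2.07 FPKM in control and 10.8 ± 0.6 FPKM in mitochondria libraries (SD, n = 3). Slit2 made up 81.4%, 85.7% and 83.1% of that sum in control libraries 1, 2 and 3 and 70.7%, 70.4% and 70.7% in mitochondria libraries 1, 2 and 3. Slit1 made up 13.7% ± 1.43 and 25.1% ± 0.336 (SD, n = 3). The share of Slit2 thus differed by more than the spread within either group, and it varied less among the mitochondria libraries than among the controls. These sums and shares largely follow from the level of Slit2, which led the choice of the family. The reads carry no molecular identifiers and FPKM gives no counting interval for such shares.

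**Figure D3:**
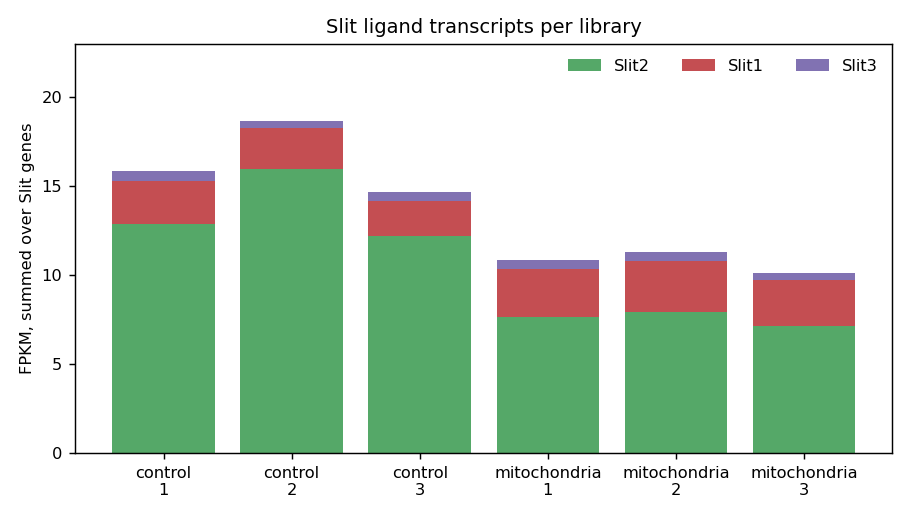
Stacked FPKM of Slit2, Slit1 and Slit3 in each library, from 0. The Slit2 part of the stack is 81.4% to 85.7% in the control and 70.4% to 70.7% in the mitochondria libraries.

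Slit2 and Slit3 carry the hairpins of the same microRNA in an intron each, and this microRNA is known to repress Robo1 in human cells. Mir218-1 lies in intron 16 of a Slit2 transcript with 39 exons (chromosome 5, 48223942 to 48224051), and Mir218-2 lies in intron 14 of a Slit3 transcript with 36 exons (chromosome 11, 35616816 to 35616925). The mRNA libraries do not measure mature microRNAs, and the hairpin rows held 0 counts except for 1 count of Mir218-1 in control library 2. The mature sequence, which is the same from either hairpin, is shown from RefSeq with bases 2 to 8, the seed, in capitals. Below it are the matches to that seed in the longest annotated 3' UTR of the ligand and receptor genes above 1 FPKM that hold one, read from GENCODE M21 transcripts on GRCm38, with the match in capitals.
mmu-miR-218-5p: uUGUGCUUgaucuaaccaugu
Slit2 site 1 (chr5:48304528-48304551, plus strand): cgccaatactagcagAAGCACAtc
Slit2 site 2 (chr5:48306831-48306854, plus strand): agataattattagcaAAGCACAta
Robo1 site 1 (chr16:73045333-73045356, plus strand): tttttttggttttaaAAGCACAat
Robo2 site 1 (chr16:73895357-73895380, minus strand): attttatttggtgatAAGCACAaa
Robo2 site 2 (chr16:73893031-73893054, minus strand): agtcacggcagacccAAGCACAgc
Robo3 and Srgap2 have 1 match each, and Slit1, Slit3, Robo4 and Srgap1 have 0. AAGCACA occurs in 13.8% of 21020 longest 3' UTRs, but length sets much of that share: among UTRs of 0.8 to 1.25 times the length it was 33.5% for the 3492 bases of Slit2, 18.5% for the 1733 bases of Robo1 and 38.0% for the 3987 bases of Robo2. The matches are letters in an annotated transcript and say nothing of use in these cells.

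Robo1, the receptor through which Slit2 acts in many endothelial cells, was the most abundant receptor gene and nearly level between the groups. It had 10.9, 12.2 and 11.1 FPKM in control and 11.8, 12.8 and 11.5 FPKM in mitochondria libraries. The groups overlapped, and the second library of each group was the highest. The means were 11.4 ± 0.693 and 12.0 ± 0.707 FPKM (SD, n = 3), with a log2 fold change of 0.07 (SE 0.065). Robo1 (ENSMUSG00000022883) is on the plus strand of chromosome 16, from 72308306 to 73046095.

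Robo2, a close relative of Robo1 that also binds Slit proteins, lies on the minus strand of the same chromosome (ENSMUSG00000052516, from 73891839 to 74411534). It had 1.54, 2.44 and 1.78 FPKM in control and 1.42, 1.85 and 1.49 FPKM in mitochondria libraries. The groups overlapped, since mitochondria library 2 was above control libraries 1 and 3. The means were 1.92 ± 0.463 and 1.58 ± 0.23 FPKM (SD, n = 3), with a log2 fold change of -0.29 (SE 0.189), and without control library 2 it was -0.08.

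Of the 5 tested mesenchymal genes, 3 (Pdgfrb, Col1a1 and Col3a1, named after their values were seen) were highest in the second library of each group. So were the members Slit2, Robo1 and Robo2. Pdgfra was not, with 156, 155 and 149.6 CPM in control libraries, nor was Acta2, with 2.03, 2.41 and 2.64 CPM in mitochondria libraries. Pdgfrb, a receptor of mural cells and fibroblasts, had 95.6, 165 and 80.5 CPM in control and 87.8, 113 and 74.5 CPM in mitochondria libraries. The collagen gene Col3a1 had 516, 867 and 431 CPM and 482, 653 and 431 CPM in the same order. The summed level of the 12 mesenchymal genes was 792 to 1417 CPM in control and 799 to 1121 CPM in mitochondria libraries, with control library 2 and mitochondria library 2 at the top of their groups. Of the 5 tested, 4 had a log2 fold change below 0 and 0 were called by edgeR or DESeq2, and 7 of the 12 stayed below 1 FPKM, with Thy1 at 0 counts in 5 libraries. Their part in the values of Robo2 and Slit2 was not tested. Without control library 2 the log2 fold change of Slit2 was -0.73. By edgeR 1 of the 6 members, Slit2, was then called, against 0.117% of all tested genes. With any other single library left out, 0 members were called. Nothing is read from these counts either.

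**Figure D4:**
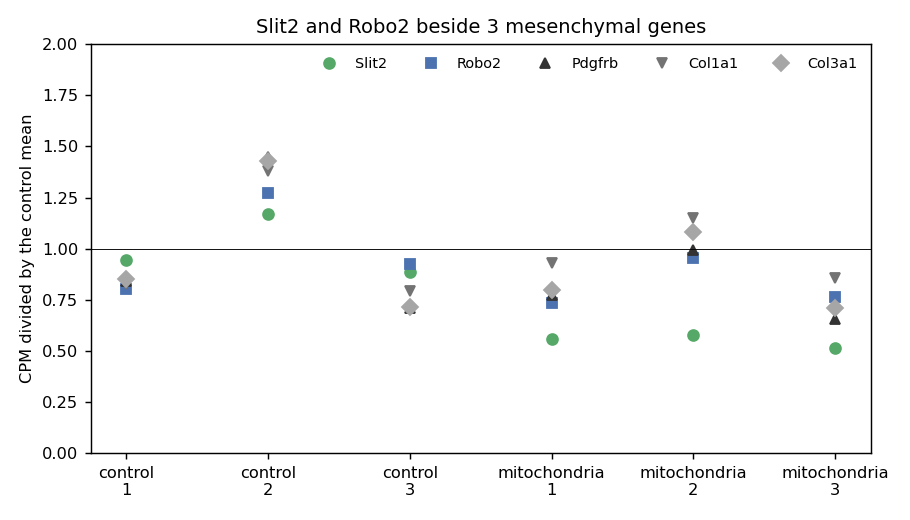
CPM of Slit2 and Robo2 and of the mesenchymal genes Pdgfrb, Col1a1 and Col3a1 in each library, divided by the mean of the 3 control libraries, on a linear axis from 0. All 5 genes are highest in control library 2 (1.17 for Slit2, 1.27 for Robo2, 1.45 for Pdgfrb), and the 3 mitochondria values of Slit2 are at 0.517 to 0.578.

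Robo3 and Robo4 were near the limit of detection. Robo3, which in mammals binds NELL2 rather than Slit proteins with high affinity, had 55, 66 and 50 counts in control and 51, 37 and 39 counts in mitochondria libraries, or 0.0943, 0.114, 0.0971, 0.0925, 0.0653 and 0.0764 FPKM. All control values were above all mitochondria values, by a margin of 0.0943 against 0.0925 FPKM. Robo4, the endothelial member of the family, had 4, 0 and 0 counts in control and 0, 0 and 8 counts in mitochondria libraries. All were under the floor of 12 counts per library, assumed to stand for about 3 fragments, so no ratio is given. Of the endothelial markers, Pecam1 and Cldn5 were low or at 0 as well, while Cd34, Eng and Flt1 were abundant. The genes are neighbours on chromosome 9, with Robo4 (ENSMUSG00000032125) on the plus strand from 37401897 to 37415115 and Robo3 (ENSMUSG00000032128) on the minus strand from 37415669 to 37433246, 553 bases apart.

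The receptor sum was 13.4 ± 1.16 FPKM in control and 13.7 ± 0.91 FPKM in mitochondria libraries (SD, n = 3), and Robo1 made up 85.0% ± 2.14 and 87.9% ± 0.796 of it. The ratio of ligand to receptor FPKM was 1.27, 1.27 and 1.13 in control libraries 1, 2 and 3 and 0.817, 0.767 and 0.773 in mitochondria libraries 1, 2 and 3. Ligand transcripts were thus the more abundant in every control library and the less abundant in every mitochondria library. Slit2 made up most of the ligand sum and the receptor sum was nearly level. The ratio therefore largely restates the level of Slit2, which led the choice of the family, and adds no support. The ratio of Slit2 to Robo1 was 1.2 ± 0.111 and 0.631 ± 0.0174 (SD, n = 3). Control library 2 had the highest ratio of Slit2 to Robo1 too, at 1.31 against 1.19 and 1.09 in control libraries 1 and 3.

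The adaptor genes lay between Robo1 and Robo2 in level and differed little. Srgap2, whose protein bends membranes as well as acting on Rac, had 9.49, 9.13 and 9.46 FPKM in control and 8.49, 8.78 and 8.72 FPKM in mitochondria libraries. The groups did not overlap, but the step was small, from 9.36 ± 0.201 to 8.66 ± 0.152 FPKM (SD, n = 3), a log2 fold change of -0.12 (SE 0.039). Srgap1, which inactivates Cdc42 downstream of Robo1, had 3.39, 3.86 and 3.58 FPKM in control and 3.23, 3.4 and 3.89 FPKM in mitochondria libraries. Its groups overlapped, with a log2 fold change of -0.05 (SE 0.089). Srgap2 (ENSMUSG00000026425) is on the minus strand of chromosome 1, from 131285251 to 131527352, and Srgap1 (ENSMUSG00000020121) on the minus strand of chromosome 10, from 121780991 to 122047315. Srgap1 overlaps Gm48804, a row on the same strand with at most 94 counts in any library.

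The order of the members by FPKM changed at its top alone. In control cells it ran Slit2, Robo1, Srgap2, Srgap1, Slit1, Robo2, Slit3, Robo3 and Robo4, and the ranges of Slit2 and Robo1 and those of Slit1 and Robo2 overlapped while other neighbours in the order did not. In cells given mitochondria it ran Robo1, Srgap2, Slit2, Srgap1, Slit1, Robo2, Slit3, Robo3 and Robo4, with no overlap between neighbours. Of the 6 tested members, 3 had CPM values that did not overlap between the groups (Slit1, Slit2 and Srgap2), against 21.4% of all tested genes. The median log2 fold change of the 6 was -0.089, with 4 below 0, against -0.0016 over all tested genes.

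Across the 6 libraries, the 5 tested genes whose log2 CPM had the highest Pearson correlation with Slit2 were Ngly1 (0.994), Golga7 (0.993), Tada2b (0.993), H60b (0.986) and Ier5l (0.985). These points share the group shift and the high control library 2, and 321 genes had a correlation above 0.9. Ngly1, which encodes a deglycosylase, was at 42.3 ± 0.483 and 40.5 ± 0.0822 CPM, and Ier5l at 23.4 ± 1.75 and 17.9 ± 0.426 CPM (SD, n = 3), so a like shape came with a far smaller difference than that of Slit2, 392 ± 59 and 216 ± 12.2 CPM (SD, n = 3).

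Genes outside the family were taken from 5 lists with 110 genes, of which 69 were tested: intracellular partners of Robo, surface cofactors of Slit and Robo, netrins, semaphorins with plexins, and ephrins with Ephs. By edgeR 0 of the 69 were called, with 12 at an unadjusted p under 0.05, and DESeq2 called 3, against 0.164%, 13.0% and 2.82% of all tested genes. Of 24 tested genes for intracellular partners of Robo, 10 had a log2 fold change above 0 and 14 below, with a median of -0.012. Of the 24, 7 had an unadjusted p under 0.05, against 13.0% of all tested genes. The smallest p was that of Cdh2, N-cadherin, whose adhesion Slit-Robo signalling restrains in chick neural cells. It stood at 129, 137 and 130 CPM in control and 100.1, 103 and 103 CPM in mitochondria libraries, with groups that did not overlap, a log2 fold change of -0.37 (SE 0.043) and an edgeR adjusted p of 0.0537. The DESeq2 adjusted p of Cdh2 was 1.07e-08, and that of edgeR with a replicate block was 0.184. Srgap3, the third srGAP gene, stood at 65.0 ± 3.49 CPM without and 79.4 ± 4.93 CPM with mitochondria (SD, n = 3), with adjusted p of 0.245 by edgeR and 0.0223 by DESeq2, a log2 fold change of 0.29 where those of Srgap1 and Srgap2 were -0.05 and -0.12. The GTPase gene Cdc42 stood at 379.7 ± 3.95 CPM without and 336 ± 12.2 CPM with mitochondria (SD, n = 3), with adjusted p of 0.247 by edgeR and 0.0221 by DESeq2, and the exchange factor gene Sos1 had a fold change of 0.884 (edgeR adjusted p = 0.251).

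Surface cofactors and other guidance families gave 0 calls by edgeR or DESeq2. Of 19 tested cofactor genes 11 had a log2 fold change above 0, the median was 0.016, and 1 had an unadjusted p under 0.05. It was Gpc1, a heparan sulfate proteoglycan that binds Slit proteins, at 1.3-fold with overlapping groups (edgeR adjusted p = 0.363). Sdc3, another such proteoglycan, the sulfotransferase gene Hs6st1 and the chain-building gene Extl3 had fold changes of 1.19, 1.12 and 1.07 (edgeR adjusted p = 0.385 to 0.441). Among netrins and their receptors 5 of 13 were tested, with a median of -0.026 and 0 at an unadjusted p under 0.05. Of these the neogenin ligand genes Rgmb and Rgma, the ligand gene Ntn3 and the receptor gene Neo1 had fold changes of 0.881, 0.939, 1.07 and 0.982 (edgeR adjusted p = 0.499 to 0.84). The netrin receptor genes Dcc and Unc5b, the latter at a log2 fold change of 0.04, were listed with the surface cofactors instead.

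Semaphorins and plexins had 12 of 14 tested genes above 0, against 6337 of 12774 over all tested genes, and this direction count was not tested. It leaves out Plxna1, a plexin gene listed with the surface cofactors, which had a log2 fold change of -0.05. The median log2 fold change of the 14 was 0.1, and 1 of them had an unadjusted p under 0.05. That gene was Sema4g, at 1.37-fold (edgeR adjusted p = 0.292), while Plxnd1, the endothelial semaphorin receptor, Sema4c and Sema6b had 1.09-fold, 1.26-fold and 1.25-fold (0.41 to 0.606). Of 7 tested ephrin and Eph genes 4 were below 0, with a median of -0.192 and 3 at an unadjusted p under 0.05, against 13.0% of all tested genes. They were Efnb2, the arterial ephrin, Epha2 and Efna5, with fold changes of 0.77, 0.875 and 0.849 (edgeR adjusted p = 0.305 to 0.335), and Efna3 had 1.26-fold (0.494). Among the 69 the log2 fold change furthest from 0 was 0.51, that of Abl1, a kinase gene downstream of Robo named after its value was seen, against -0.86 for Slit2.

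**Figure D5:**
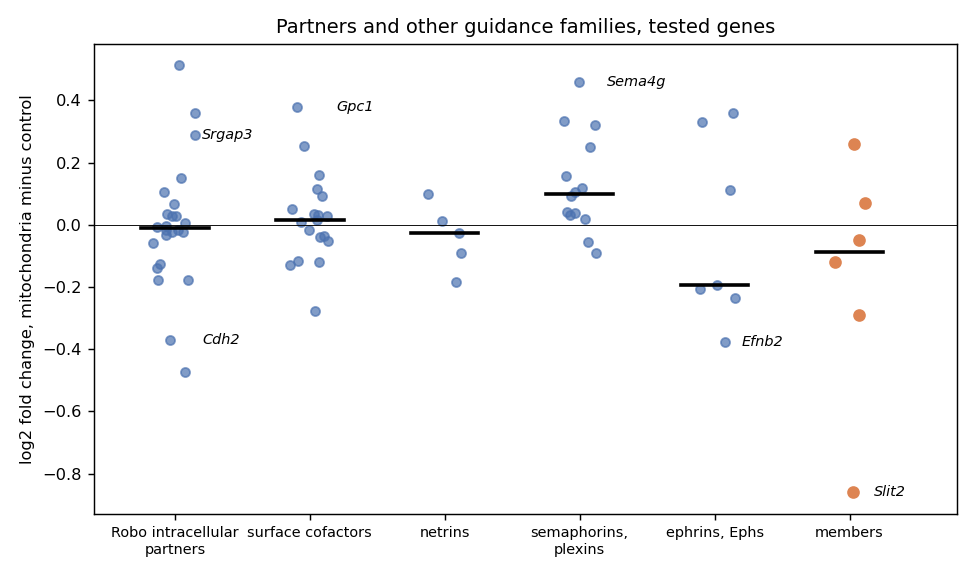
Log2 fold change, mitochondria minus control, of each tested gene in the 5 partner and guidance lists (blue) and of the 6 tested members (orange). Black bars are medians, from -0.192 for ephrins and Ephs to 0.1 for semaphorins and plexins, and Slit2 is the lowest point.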

How the data were processed

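Stranded mRNA libraries, as the labels describe them, gave 1 deposited table of genes for 6 libraries. The build is GRCm38, and HISAT2 2.2.1, cutadapt 1.9, edgeR, DESeq2 and StringTie 2.1.6 are named without roles, per the submitters' processing notes. Which annotation release and strand setting were used is not given in the sources used here. FPKM values were deposited by the authors, named so per the file headers. The deposited estimated counts are whole, and 36.6% of those from 1 to 20 are multiples of 4 against 25% if spread evenly. From this, 1 fragment was assumed to be worth about 4 counts, although most of these counts are not multiples of 4. The floor is therefore 12 counts per library, for counting error only.

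The test across genes was edgeR 4.0.16 (quasi-likelihood, TMM, R 4.3.3) on those counts for genes with a mean of at least 1 FPKM, Benjamini-Hochberg adjusted p under 0.05. SE values come from its F statistic, and CPM uses its scaling. On simulated data with 200 changed genes among 12774, 99% were recovered with 7 false calls. The simulation gave every gene the same small dispersion and a changed gene a fixed change up or down. These rates therefore do not give the power of the test in the deposited libraries. Alternatives were DESeq2 1.42.0, limma 3.58.1 on log2(FPKM + 1) and log2(FPKM + 0.1), other filters and scalings, a replicate block and leaving out each library. The deviations of same-numbered libraries from their group means were weakly correlated (0.155, 0.101 and 0.231). Other pairs of a control and a mitochondria library had -0.216 to 0.0839. This pairing is read from the data, not the labels.

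The members, lists and tests were chosen with earlier results of these data known. Named are the 9 members, the 4 genes with the smallest p in each list, and the 5 most correlated with Slit2; Abl1, Cap1 and the markers shown were named after their values were seen. Sequences are from RefSeq (GRCm38.p6) and GENCODE M21.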

Additional observations from a re-analysis of the deposited data

How the results depend on the processing

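Over the alternatives, the log2 fold change of Slit2 ran from -0.94 to -0.73 and kept its direction in 14 of 14, as did Robo1 (0.02 to 0.12) and Srgap2 (-0.14 to -0.1). Slit1 (0.18 to 0.32) and Robo2 (-0.42 to -0.08) kept theirs in 13 of 13, and Srgap1 ran from -0.13 to 0. All these fits use the same libraries. The groups of Slit1, Slit2 and Srgap2 did not overlap, so the kept direction of these members adds no support. The 21 calls over all genes, 8 higher and 13 lower, became 360 with DESeq2, 8 with a mean of at least 5 FPKM and 0 with the replicate block, where 2153 genes had an unadjusted p under 0.05. With the counts divided by 4, the assumed counts per fragment, there were 14 calls. Leaving out 1 library gave 1 to 27 calls, the fewest with control replicate 1 left out, and 12 and 15 with control replicates 3 and 2 left out. Of the partner and guidance genes DESeq2 called 3 (Cdc42, Cdh2, Srgap3) where edgeR called 0, and the block called 0. Leaving out 1 library gave 0 to 1, the 1 being Cap1 without mitochondria replicate 3, at a log2 fold change of -0.74 (edgeR adjusted p = 0.0159) in place of -0.47 (0.379). The cause was not tested. Changes of Robo4 were not detectable, since all its values were under 12 counts.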
